A study of Mus musculus with 8 samples.

Results

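Immunoglobulin genes are made up of constant genes, which encode the part of the antibody chain that sets its class, and of variable and joining segments, which are cut and joined in each developing B cell to encode the part that binds antigen. A B cell and its descendants therefore transcribe the particular variable gene they have joined, whereas the constant gene is shared by all cells making that class. In the gut wall these transcripts come from B cells gathered in lymphoid follicles and from plasma cells spread through the mucosa.

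The genes described here are all those annotated as immunoglobulin genes in a table of colon tumour RNA sequencing. They were taken by their annotated gene type, but the table itself lists only genes selected on a group difference, as set out below. They number 13 of the 1428 genes in the table. The constant genes number 4, namely the heavy chain genes Ighm, Ighd and Ighg2b and the lambda light chain gene Iglc2. Joining segments are represented by Ighj4 alone. The variable genes number 8, with 5 of the heavy chain (Ighv1-39, Ighv10-3, Ighv2-9, Ighv7-3 and Ighv9-4) and 3 of the kappa light chain (Igkv4-86, Igkv4-90 and Igkv8-30). No immunoglobulin pseudogene is among them by the table's annotation, although RefSeq classes Ighv7-3 as a variable segment pseudogene in the reference strain.

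The tumours came from C57BL/6N mice that received the carcinogen azoxymethane and then had their colon lining injured with dextran sodium sulfate. The 4 wild-type libraries (WT) were compared with 4 libraries from mice with the microRNA gene miR-29ab1 disrupted in the intestinal epithelium (KO), whose labels carry "Vilin" after the gene name. B cells are not epithelial cells, so by the design as labelled their own miR-29ab1 was not the target of the deletion. The labels do not state the alleles of the WT mice, the age and sex of the animals or whether a library came from 1 animal or from several, so p-values reflect no more than how these libraries vary, and that variation may be technical. miR-29 has no entry in the table, so the deletion was not checked here. The 6 epithelial markers looked for have none either, while Pigr, a receptor of epithelial cells described with the other receptors, was high in all 8 libraries.

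The values are normalized counts, that is, reads per gene divided by a size factor for each library. The listed genes held between 1202677 and 2180787 reads per library, and the 13 immunoglobulin genes between 191 and 1922. In the authors' deposited comparison the unadjusted p of every listed gene is below 0.05. The table is thus a selection made on the KO against WT contrast itself: a difference between the groups was required for a gene to be there. For this reason the group differences below are given as descriptions. GENCODE M21, the reference annotation used for scale, holds 13 immunoglobulin constant genes, of which 4 were listed, and 218 variable genes, of which 8 were listed. The kappa constant gene, the IgA heavy chain gene and the other genes of those classes were not analysed here.

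The sequences of the joining and variable segments are shown because they decide how well a short read can be told from its neighbours. All 13 genes were matched by symbol to GENCODE M21 transcripts (build GRCm38), and 9 had the same length there as in the table, including all 8 variable genes and Ighj4. Each sequence is written 5′ to 3′. In the 4 heavy chain joining segments the capitals mark the match to TGGGG, any 4 bases, GG and any base, searched on the coding strand only, which encodes the conserved tryptophan and glycines that open the last framework region of the chain. Of the 14 annotated joining genes, 4 (28.6%) hold it, and these are the 4 of the heavy chain.
Ighj4: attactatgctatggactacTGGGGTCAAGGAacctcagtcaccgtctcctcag
Ighj1: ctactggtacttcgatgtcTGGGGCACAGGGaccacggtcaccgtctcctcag
Ighj2: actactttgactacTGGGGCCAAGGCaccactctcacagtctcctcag
Ighj3: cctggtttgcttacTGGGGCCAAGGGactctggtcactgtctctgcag
Ighj4 spans only 54 bases. Its nearest relative by alignment was Ighj2, at 85.0% identity over 40 bases, and the longest stretch the pair shared without a mismatch was 11 bases.

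For the 8 variable genes the last 48 bases of the germline segment are shown, where the segment is joined to the rest of the chain. The capitals mark the last TNNTGT or TNNTGC, searched on the coding strand only, whose final codon encodes the conserved cysteine before the antigen-binding loop. Among all 218 annotated variable genes, 213 (97.7%) hold such a match in their last 48 bases.
Ighv1-39: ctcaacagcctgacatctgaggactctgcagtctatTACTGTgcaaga
Ighv10-3: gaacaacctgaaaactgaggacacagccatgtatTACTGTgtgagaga
Ighv2-9: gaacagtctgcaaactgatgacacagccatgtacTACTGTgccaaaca
Ighv7-3: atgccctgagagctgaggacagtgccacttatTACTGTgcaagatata
Ighv9-4: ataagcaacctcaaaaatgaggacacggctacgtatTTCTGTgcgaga
Igkv4-86: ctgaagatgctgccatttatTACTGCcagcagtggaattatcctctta
Igkv4-90: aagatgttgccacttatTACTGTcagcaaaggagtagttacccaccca
Igkv8-30: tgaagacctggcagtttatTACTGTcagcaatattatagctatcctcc
Every one of them has close relatives. In 7 of the 8 the nearest other immunoglobulin gene was over 90% identical. The closest was Ighv10-1 to Ighv10-3, at 96.9% over 357 bases with a shared stretch of 89 bases without a mismatch. Igkv4-86 was 89.7% identical to Igkv4-70, and the listed pair Igkv4-86 and Igkv4-90 were 88.6% identical over 332 bases. Among the constant genes, Iglc2 was 94.9% identical to Iglc3 over 454 bases and Ighg2b 87.7% identical to Ighg2c over 1219 bases, whereas the best alignments of Ighm and Ighd, both to Ighg3, covered 86 and 101 bases. None of these nearest relatives is in the table. The labels do not say how reads shared by such genes were assigned, so the values of all variable genes and of Iglc2 and Ighg2b are uncertain to that extent.

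By the positions given in the table, which uses identifiers of the C57BL/6NJ annotation and names no build, the 9 heavy chain genes lie on the minus strand of chromosome 12 in the order of the locus. Ighg2b runs from 119355335 to 119360303, Ighd from 119456609 to 119466174, Ighm from 119469403 to 119473561 and Ighj4 from 119480344 to 119480397. The variable genes follow, from Ighv2-9 at 120070384 to 120070829 through to Ighv1-39 at 121255228 to 121255661. The kappa genes lie on chromosome 6, with Igkv4-90 from 70743719 to 70744248, and Iglc2 lies on chromosome 16 from 16779667 to 16781622.

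The comparison of KO with WT tumours listed all 4 constant genes and Ighj4 higher in KO. The variable genes were mixed, with 5 higher and 3 lower. In all, 10 of the 13 immunoglobulin genes were listed higher, where 58.1% of all listed genes were higher and 41.9% lower. At an adjusted p below 0.05 in the authors' deposited table only Ighg2b of the 13 rose in KO, where 0.560% of all listed genes passed that threshold and 0.420% passed it with a rise. The 4 KO values lay wholly above the 4 WT values in 2 of the 13, Ighv9-4 and Igkv4-86, where 23.9% of listed genes did so and 44.7% were separated in either direction. No immunoglobulin gene had all KO values below all WT values, as 20.7% of listed genes had.

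Ighg2b encodes the constant region of IgG2b, a class that B cells make after switching from IgM. It stood at 83.7, 101.7, 174.9 and 86.0 normalized counts in WT replicates 1 to 4 and at 377, 402, 167 and 462 in KO replicates 1 to 4. KO replicates 1, 2 and 4 lay above every WT library, while KO replicate 3 lay just under WT replicate 3. The group means were 111.6 ± 43.0 in WT and 352 ± 128 in KO (SD, n = 4), a KO mean 3.15 times the WT mean. The authors' deposited table lists it with a log2 fold change of 1.66 and a DESeq2 adjusted p of 0.0461. Its adjusted p was 0.0314 in a DESeq2 refit of the reads and 0.867 in an edgeR quasi-likelihood refit, the range over all alternatives being 0.0314 to 1.0. The refits estimated spread from the listed genes alone, which were selected on the same contrast. Their p-values are therefore not free of that selection, and the DESeq2 refit adds no separate evidence for the call. Leaving out KO replicate 4 brought the ratio of its means to 2.83.

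Ighm encodes the IgM constant region, carried by B cells before switching and secreted by some plasma cells. Its WT libraries held 25.3, 44.2, 64.7 and 84.0 normalized counts and its KO libraries 43.4, 216, 136 and 795. KO replicate 1 fell within the WT range and KO replicate 4 held 56.4% of the total over the 8 libraries. The means were 54.5 ± 25.4 in WT and 298 ± 339 in KO (SD, n = 4). In the authors' deposited table its log2 fold change was 2.45 and its DESeq2 adjusted p 0.255, and a DESeq2 refit gave that fold change a standard error of 0.77. Without KO replicate 4 the KO mean dropped to 132, which is 2.42 times the WT mean in place of 5.46 times.

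Ighd encodes the constant region of IgD, which mature B cells that have not switched express together with IgM from the same primary transcript. WT replicates 2 and 4 held 3.08 and 4.05 normalized counts and WT replicates 1 and 3 held none, which allows up to 2.92 and 3.03 normalized counts there. In KO the values were 2.89, 49.3, 5.34 and 361. KO replicate 4 alone held 84.8% of all Ighd in the series and KO replicate 1 lay within the WT range. The KO mean was 105 ± 172 and the WT mean 1.78 ± 2.10 (SD, n = 4), resting on 7 reads in WT. The deposited log2 fold change was 5.88 with a DESeq2 adjusted p of 0.282 in the authors' deposited table. The KO mean without KO replicate 4 was 19.2, or 10.8 times the WT mean, against 58.7 times with it, and without WT replicate 4 it was 102 times.

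Iglc2 encodes a constant region of the lambda light chain, the minor light chain of the mouse. Its WT values were 42.8, 79.1, 71.8 and 40.5 normalized counts and its KO values 32.8, 102, 223 and 147. Unlike the heavy chain constant genes it was highest in KO replicate 3, and KO replicate 1 was the lowest of all 8 libraries. The means were 58.5 ± 19.8 in WT and 126.2 ± 80.0 in KO (SD, n = 4). In the authors' deposited table its log2 fold change was 1.11 and its DESeq2 adjusted p 0.697, and its ratio of means, 2.16, came to 1.602 when KO replicate 3 was dropped and to 2.04 when KO replicate 4 was. Ighj4, the joining segment nearest to the constant genes, stood at 1.95, 4.11, 4.05 and 8.09 in WT and at 9.64, 15.003, 8.01 and 23.5 in KO. Its groups met at WT replicate 4 and KO replicate 3. In the authors' deposited table the log2 fold change of Ighj4 was 1.63 with a DESeq2 adjusted p of 0.656.

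**Figure D1:**
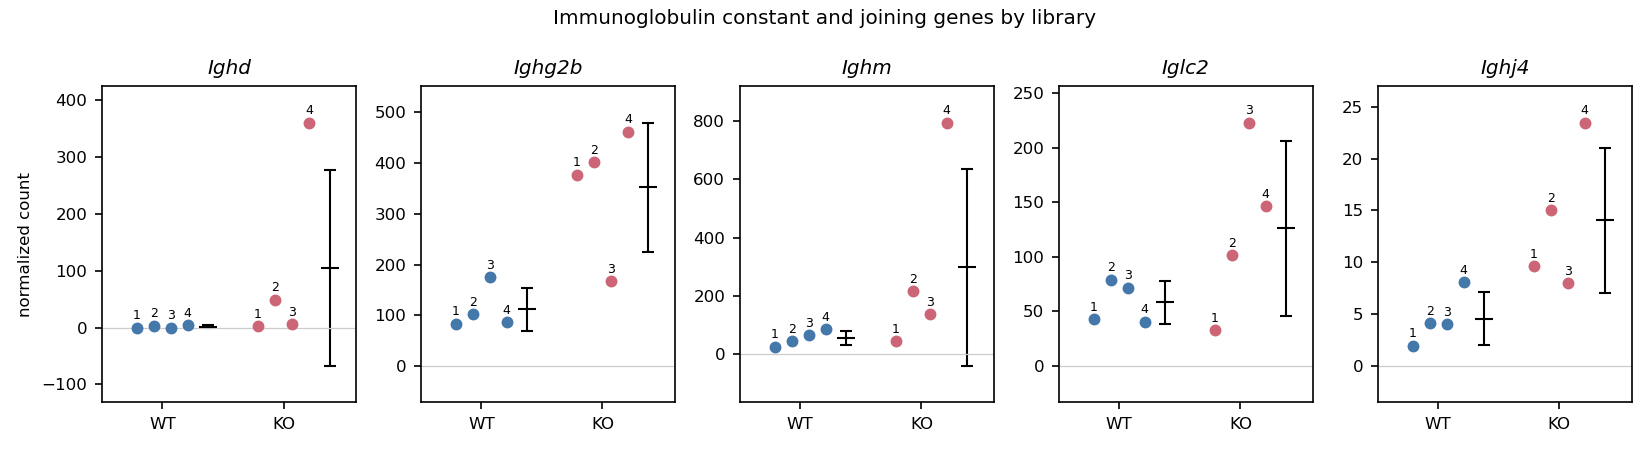
Normalized counts (y axis) of the 4 constant genes and Ighj4 in WT (blue) and KO (red) libraries, each point 1 library with its replicate number, black marks the mean and bars ± SD over 4 libraries, which may run below 0. KO replicate 4 stands far above the other libraries in Ighd (361) and Ighm (795), whereas in Ighg2b KO replicates 1, 2 and 4 lie close together between 377 and 462.

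The heavy chain classes were mixed in different proportions from library to library. Of the reads of Ighm, Ighd and Ighg2b in a library, Ighg2b took 76.8, 68.3, 73.0 and 49.4% in WT replicates 1 to 4 and 89.1, 60.2, 54.2 and 28.5% in KO replicates 1 to 4. The 2 extremes were both KO libraries. In KO replicate 1 the exact Clopper-Pearson 95% interval was 85.8 to 91.8% of 439 reads, and in KO replicate 4 it was 26.4 to 30.8% of 1654 reads. These intervals cover counting error only. Ighd took 22.3% in KO replicate 4 (20.3 to 24.4%) and 7.38% in KO replicate 2, and at most 2.33% in every other library. Ighg2b relative to Ighm was 8.69 in the first KO replicate and 0.581 in the fourth, and 1.02 to 3.31 in WT. The group means of that ratio were 3.09 ± 3.77 in KO and 2.33 ± 0.966 in WT (SD, n = 4), so the spread within KO exceeded the difference between the groups.

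In the KO libraries the summed B cell markers followed the order of Ighm and Ighd. Of 15 B cell markers, among them Ms4a1, Cd79a and Pax5, 13 were listed, all 13 higher in KO, where 58.1% of all listed genes were, and 1, Bank1, passed the adjusted threshold. Their summed level was 122 to 315 normalized counts in WT. By KO replicate it was 268, 1031, 367 and 3022, the same order of libraries as for Ighm and Ighd, highest in replicate 4, then 2, then 3, then 1. Ighg2b and Iglc2 had other orders in KO. Single markers also departed from it, Cr2 being highest in KO replicate 2 (120) and Ebf1 lowest there (23.6). In WT replicates 1 to 4 the marker sum was 193, 122, 189 and 315, another order than that of Ighm. Ighm relative to this sum was 0.131 to 0.361 in WT and 0.162 to 0.370 in KO, with means of 0.275 ± 0.104 and 0.251 ± 0.0895 (SD, n = 4). Ighg2b relative to it was 0.273 to 0.925 in WT and 0.153 to 1.41 in KO. For Ighd the ratio was 0 to 0.0252 in WT and 0.0108 to 0.119 in KO, with means of 0.0095 and 0.0481. For Iglc2 it was 0.129 to 0.647 in WT and 0.0486 to 0.608 in KO, with means of 0.344 and 0.219. All of these ratios overlapped between the groups, although their means did not move alike. More B cells and more RNA per B cell cannot be told apart in bulk tissue, and the part of either in the results was not tested.

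Plasma cell markers gave less to compare. Of 10, only Irf4, which B cells also use, was listed; it stood at 19.2 to 33.1 normalized counts in WT and 43.6 to 85.7 in KO. The other 9, Jchain, Mzb1, Sdc1 and Xbp1 among them, have no entry, and their levels were not analysed here. The same held for all 12 genes of immunoglobulin folding and secretion.

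Among 12 transcription factors of immunoglobulin genes 5 had an entry, each higher in KO, with none past the adjusted threshold. One of them was Pou2af1, the coactivator that works with octamer-binding factors at immunoglobulin promoters, at 40.5 to 54.5 normalized counts in WT and 77.1 to 199.6 in KO. Of 16 B cell receptor signalling genes 7 were listed, all higher, with Bank1 past the threshold. Of 13 immunoglobulin receptors and transporters 3 were listed, all higher and none past it. Pigr, the epithelial receptor that carries IgA and IgM into the gut lumen, held 16674 to 28432 normalized counts in WT and 24061 to 105328 in KO, with KO replicate 1 within the WT range and KO replicates 2 and 3 above it at 31633 and 31877. Fcmr, an Fc receptor for IgM on B cells, was 0 to 5.06 in WT and 2.89, 25.7, 4.45 and 132 in KO. Its KO libraries had the same order as for Ighm. Of 13 class switch signals, Tnfsf13b was listed higher and Cd40 lower. Tnfsf13b stood at 59.7 to 145.7 normalized counts in WT and 133.0 to 166.1 in KO. Cd40 stood at 49.6 to 99.7 in WT and 17.8 to 50.9 in KO. Their DESeq2 adjusted p-values in the authors' deposited table were 0.691 and 0.291, in that order. Of 9 T cell markers 3 were listed and of 8 follicle genes 3, all higher, with Cxcl13, the chemokine that draws B cells into follicles, at 300.4 normalized counts in KO replicate 4 and 161 in KO replicate 2, while KO replicates 1 and 3, at 29.9 and 55.2, lay within the WT range of 28.3 to 69.8.

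The variable genes were spread unevenly over the libraries. Ighv7-3, the most abundant, had 1.95, 5.14, 8.09 and 23.3 normalized counts in WT and 28.0, 141, 32.9 and 0.978 in KO. KO replicates 1 to 3 exceeded all WT libraries, and KO replicate 4, which led Ighm and Ighd, had a lone read. The deposited log2 fold change was 2.40 with a DESeq2 adjusted p of 0.656 in the authors' deposited table. Without KO replicate 2 the KO mean dropped from 50.8 to 20.6 normalized counts, against 9.61 in WT. Dropping WT replicate 4 moved the ratio of the KO to the WT mean from 5.29 to 10.1.

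Ighv2-9 had 59.7 normalized counts in KO replicate 4, 4.29 and 4.45 in KO replicates 2 and 3 and none in KO replicate 1. In WT it had 2 reads, both in replicate 4. The ratio of KO to WT was 33.8, with an exact 95% counting interval of 9.02 to 285. Its DESeq2 adjusted p in the authors' deposited table was 0.470, and the KO mean was 2.91 normalized counts once KO replicate 4 was left out.

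Ighv9-4, Igkv4-86 and Igkv4-90 had no read in any WT library and few in KO. Ighv9-4 held 0.964, 4.29, 8.01 and 1.96 normalized counts in KO replicates 1 to 4, from 16 reads. Igkv4-86 held 1.93, 3.21, 3.56 and 8.81, from 18 reads, and Igkv4-90 held 0, 8.57, 16.9 and 0.978, from 28 reads. A count of 0 was taken to allow 3 reads over the 4 WT libraries. The observed KO means were 5.04, 5.80 and 8.77 times that limit, in that order. The limit covers counting error in WT only, not the spread between libraries, and the genes were listed for this same contrast. These ratios are therefore not lower bounds of the fold change. Without the highest KO library of each gene the ratios were 3.19, 3.85 and 4.22. The highest library differed among the genes, KO replicate 3 for Ighv9-4 and Igkv4-90 and KO replicate 4 for Igkv4-86. In the authors' deposited table their DESeq2 adjusted p-values were 0.625, 0.474 and 0.611.

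The 3 variable genes listed lower in KO were all highest in WT replicate 4. Ighv1-39 had 1.95, 16.4, 6.07 and 95.1 normalized counts in WT and 0, 2.14, 1.78 and 5.87 in KO. Its deposited log2 fold change was -3.61 with a DESeq2 adjusted p of 0.377 in the authors' deposited table. The WT mean dropped from 29.9 to 8.15 normalized counts without WT replicate 4, and the KO mean was then 0.300 times the WT mean in place of 0.0819 times. Ighv10-3 had 57.7 in WT replicate 4, 6.07 in WT replicate 3 and none in WT replicates 1 and 2, against 0.964 to 3.56 in KO. Its mean in WT without replicate 4 was 2.02, close to 1.89 in KO, and the edgeR log2 fold change moved from -2.98 to -0.07. Igkv8-30 had 28.2, 5.14, 23.3 and 71.8 in WT and 10.6, 16.1, 9.79 and 11.7 in KO. All KO libraries lay within its WT range, and dropping WT replicate 4 moved the ratio of the KO to the WT mean from 0.375 to 0.639. Ighv10-3 and Igkv8-30 had DESeq2 adjusted p-values of 0.708 and 0.704 in the authors' deposited table. In WT replicate 4 the B cell marker sum, at 315, was the highest of WT and below that of KO replicates 2, 3 and 4. Its part in the result was not tested.

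**Figure D2:**
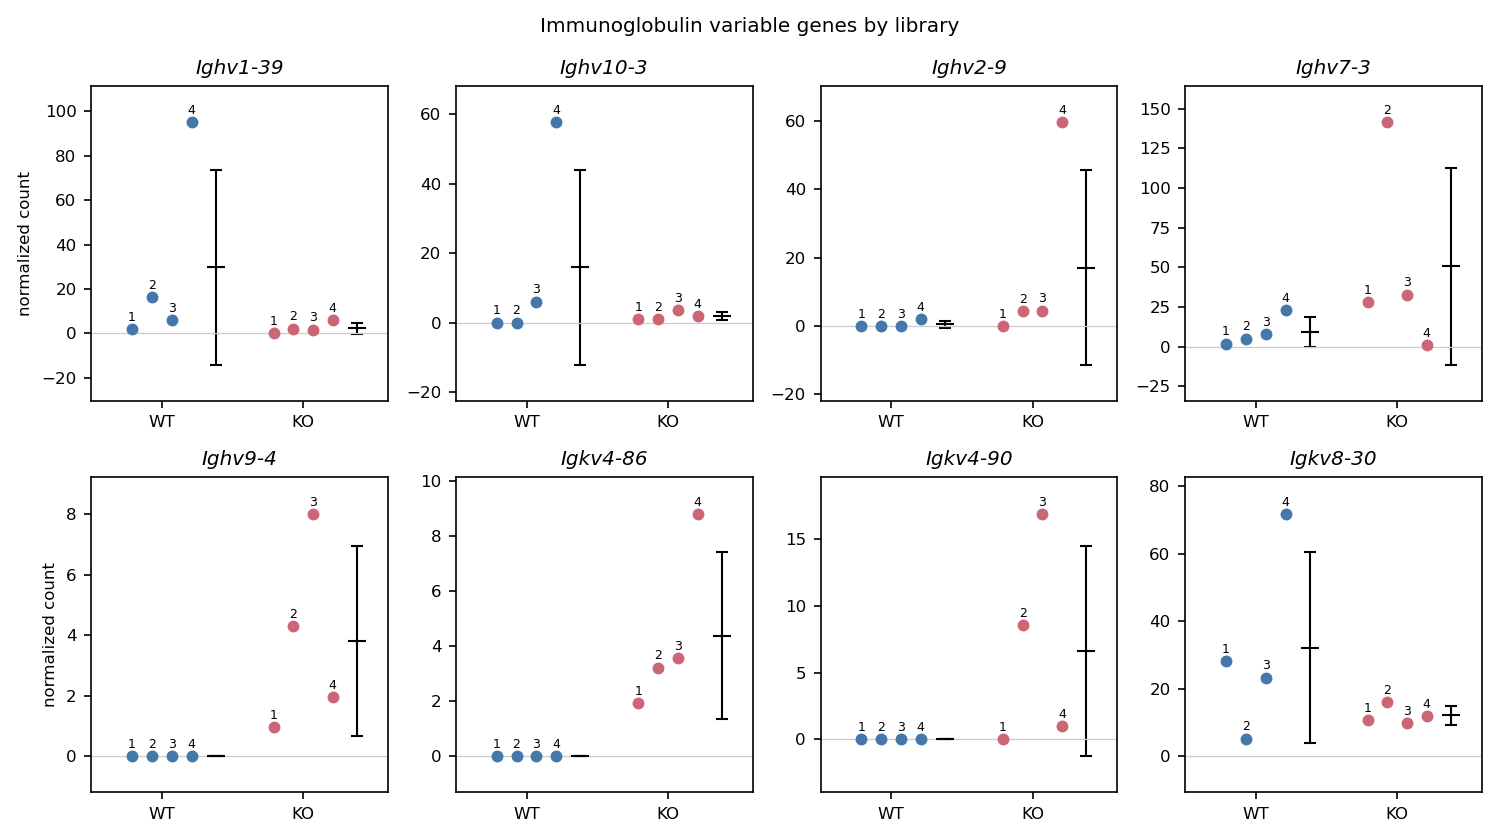
Normalized counts (y axis, its own scale in each panel) of the 8 variable genes in WT (blue) and KO (red) libraries, each point 1 library with its replicate number, black marks the mean and bars ± SD over 4 libraries, which may run below 0. A lone library lies far above the rest in Ighv1-39 (95.1, WT replicate 4), Ighv10-3 (57.7, WT replicate 4), Ighv2-9 (59.7, KO replicate 4) and Ighv7-3 (141, KO replicate 2).

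The highest library held a median of 61.2% of the 8-library total of a variable gene, from 40.7% in Igkv8-30 to 84.7% in Ighv2-9. For the constant genes the median was 43.3%, from 24.9% in Ighg2b to 84.8% in Ighd. The 394 listed genes with a mean in the range of the variable genes had a median of 36.9%, and all listed genes 24.7%. Such concentration was not particular to variable genes. Among B cell genes, Fcmr held 132 normalized counts in KO replicate 4 and at most 25.7 in any other library. Bank1 held 134 there and at most 52.5 elsewhere, whereas Ebf1 was more even, with 53.8 there and at most 35.6 elsewhere. The variable genes rest on 16 to 237 reads each over all libraries. WT replicate 4 was the highest library for 3 variable genes, KO replicates 3 and 4 for 2 each and KO replicate 2 for 1, while KO replicate 4 was the highest for 3 of the 4 constant genes. Over the whole table KO replicate 4 was the highest library for 43.6% of genes and WT replicate 4 for 21.3%.

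Within a library, the leading gene took much of the reads of the 8 variable genes. Ighv7-3 took 78.1% of 169 reads in KO replicate 2 (exact 95% interval 71.1 to 84.1%), 65.9% of 44 in KO replicate 1 and 40.7% of 91 in KO replicate 3. Ighv2-9 took 64.9% of 94 reads in KO replicate 4. Igkv8-30 led in WT replicates 1 and 3, with 87.9% of 33 and 53.5% of 43 reads, and Ighv1-39 in WT replicates 2 and 4, with 61.5% of 26 and 38.1% of 247. No gene that led in a WT library led in a KO library. Since only variable genes selected on the contrast are listed, nothing is read from this split. The number of the 8 genes with any read was 3, 3, 4 and 5 in WT replicates 1 to 4. In KO replicates 1 to 4 it was 5, 8, 8 and 8. The same selection bears on this number, since 3 of the 8 genes had no read in any WT library. It therefore cannot show whether more variable genes were transcribed in KO, and nothing is read from it.

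The classes were also set side by side, with no test between them. The deposited log2 fold changes of the 4 constant genes had a median of 2.05, ranging from 1.11 to 5.88, beside a median of 0.48 over all listed genes. Those of the 8 variable genes ran from -3.61 to 5.16 with a median of 3.38. The median was 2.37 when the 3 genes without a WT read were set at their log2 ratio to a limit of 3 WT reads. Summed by class, the 3 heavy constant genes stood at 109, 149, 239.7 and 174 normalized counts in WT and at 423, 668, 309 and 1618 in KO. Their sums did not overlap although each gene did. The KO mean of the sum was 4.49 times the WT mean, and 2.78 times without KO replicate 4. The 5 heavy variable genes summed to 3.89, 21.6, 20.2 and 178 in WT and 29.9, 153, 50.7 and 70.4 in KO, with overlapping groups. The ratio of the KO to the WT mean was 1.36 for them, 5.00 without WT replicate 4 and 0.900 without KO replicate 2, which turned the direction. For the 3 kappa variable genes that ratio was 0.718, and 1.22 without WT replicate 4, again the other direction. No p-value is given for these sums and nothing is read from whether they overlap, since their members were selected on the same contrast.

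The ratio of the summed variable to the summed constant genes was 0.212, 0.117, 0.140 and 1.17 in WT replicates 1 to 4 and 0.0930, 0.235, 0.152 and 0.0521 in KO replicates 1 to 4. WT replicate 4 was the only library in which the 8 variable genes outnumbered the 4 constant genes, and KO replicate 4 had the lowest ratio. The other 6 libraries lay between 0.0930 and 0.235 with WT and KO mixed. Group means were 0.408 ± 0.506 in WT and 0.133 ± 0.0796 in KO (SD, n = 4), and the WT mean was 0.156 without WT replicate 4. Per kilobase of gene length, the mean over all libraries was 151 normalized counts for Iglc2, 93.3 for Ighm, 86.5 for Ighg2b and 28.0 for Ighd, beside 83.7 for Ighv7-3 and 5.42 for Ighv9-4, the highest and lowest of the variable genes.

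**Figure D3:**
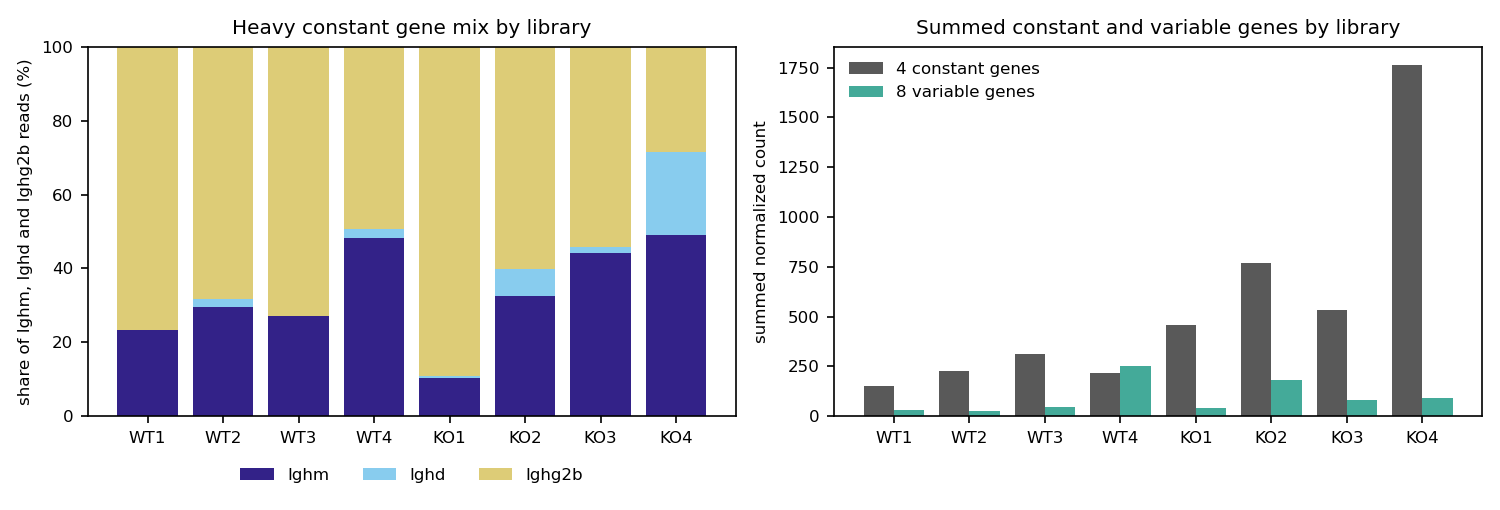
Left, share (%) of the reads of Ighm, Ighd and Ighg2b that each gene took in a library; right, summed normalized counts of the 4 constant and the 8 variable genes per library. Ighg2b takes 89.1% in the first KO replicate and 28.5% in the fourth, and the variable sum exceeds the constant sum in WT replicate 4 alone.

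The listed differences were also described by refitting all 1428 genes, in the same libraries, with edgeR's quasi-likelihood test. Of the 13 genes, 9 had an unadjusted p below 0.05 with the deposited sign, 8 higher and 1 lower, where 77.9% of all listed genes did. None passed an adjusted p of 0.05 in edgeR, and 2 did in a DESeq2 refit, Ighg2b and Ighd, where 2.59% of listed genes did. In the deposited DESeq2 comparison 0.560% of listed genes did. The refit took its spread from the selected genes alone, so nothing is read from the added pass of Ighd. In limma with a pseudocount of 1, 7 of the 13 had an unadjusted p below 0.05 with the deposited sign, where 71.9% of listed genes did. Without WT replicate 4, 9 genes kept an unadjusted p below 0.05, all higher, against 45.0% of listed genes. Without KO replicate 4, 8 did, against 51.9%, and without both 10 did, against 43.1%. The largest shift from leaving out a library was in Ighv10-3, whose edgeR log2 fold change of -2.98 came to -0.07 without WT replicate 4. In the same fits Ighd went from 5.79 to 3.34 and Ighm from 2.45 to 1.27 without KO replicate 4. The edgeR log2 fold change of Ighg2b stayed between 1.497 and 1.96 whichever library was left out.

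**Figure D4:**
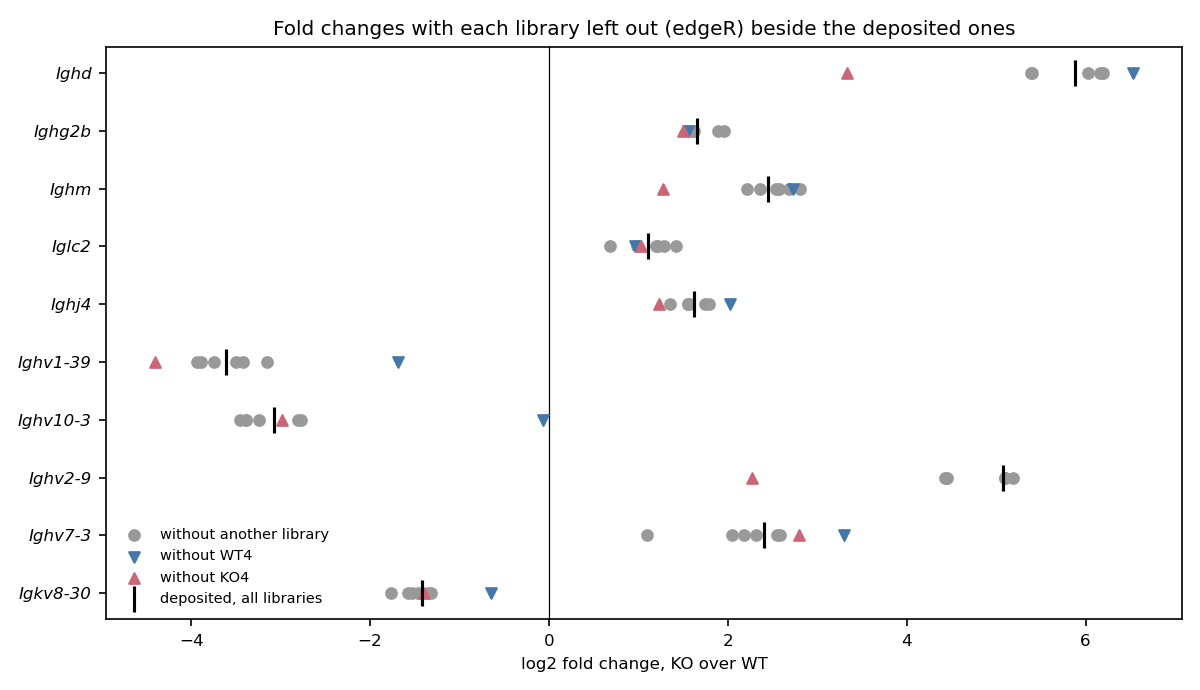
Log2 fold change of KO over WT (x axis) for the 10 immunoglobulin genes with reads in both groups, as deposited (black bars) and in edgeR fits without 1 library (blue triangles without WT replicate 4, red triangles without KO replicate 4, grey points without another library). Ighg2b stays within 1.497 to 1.96, while Ighd and Ighm move left without KO replicate 4 and Ighv10-3 moves to -0.07 without WT replicate 4; the point of Ighv2-9 without WT replicate 4 is left out because no WT read remains.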

How the data were processed

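Per the labels' protocols, TRIzol extracts of tumours were sequenced as total RNA with a kit that marks strand. HISAT2 and DESeq2 are named without versions in the submitters' processing notes, with the human build GRCh38, whereas the table's gene identifiers are those of mouse C57BL/6NJ; its coordinates are printed as given. The labels name no counting tool or strand setting. The deposited table holds, per the file headers, a normalized signal per library, the authors' log2 fold change between KO and WT and the authors' p-value and adjusted p-value for 1428 genes. Whole reads were recovered from the deposited signal with 1 size factor per library: 100% of values fell within 0.001 of a whole number.

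The members and gene lists were chosen with earlier results of these data known. Because the table is a selection, the deposited DESeq2 results were described, and refits of the recovered reads with edgeR 4.0.16, DESeq2 1.42.0 and limma 3.58.1 (log2 of the value plus 1 or 0.1) in R 4.3.3 served as alternatives. Adjustment was by Benjamini-Hochberg over 19985 genes, the number that the deposited adjusted p-values imply at 218 of 231 steps within 1 gene. Simulated data were used to test the edgeR step. They had the same spread setting for every gene and no selection on the contrast. They therefore do not show how the step performs on the listed genes. Libraries of 1 group differed by more than counting noise (chi-square per degree of freedom at least 19.8), so none were merged.

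Named genes were all constant genes, the 6 most abundant variable genes of each chain, genes past the adjusted threshold, up to 3 listed lower, and up to 4 per other list; Ighj4 completes the 13 members. Of the other lists, only members that bear on the immunoglobulin genes are given with values, and the germinal centre and gene assembly lists are not reported here. Depth is known only for the listed genes.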

Additional observations from a re-analysis of the deposited data

Results flagged for a closer look

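In 5 of 23 groups of 4 libraries with any spread, the gap between the extreme library and its neighbour took more of the group's range than Dixon's 95% limit. Chance passes it in about 1 of 20 groups of evenly measured values, a rate that does not carry over to counts near 0. KO replicate 4 stood apart in Ighd, at 361 normalized counts, and in Ighv2-9, at 59.7. WT replicate 4 stood apart in Ighv1-39, at 95.1, in Ighv10-3, at 57.7, and in Ighv2-9, at 2.02, which is 2 reads beside 3 libraries at 0, so that any read there would pass. All 5 gaps are thus in the libraries numbered 4, a high library in each case.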

How the results depend on the processing

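The count of immunoglobulin genes past an adjusted p of 0.05, 1 in the deposited table, was 2 in the DESeq2 refit and 0 in edgeR, in limma with either pseudocount, with TMM scaling, with a mean of at least 10, without each library in turn and without WT and KO replicate 4 together. The count with an unadjusted p below 0.05 was 9 in edgeR and 7 in limma with a pseudocount of 1 or 0.1. It was 4 of 7 genes with a mean of at least 10, and 6 to 10 without 1 library. The genes were listed on the same contrast in the same libraries, so nothing is read from this count. The labels do not pair libraries by number, and those with the same number did not deviate together (r from -0.29 to 0.098, none of 4 pairs over 0.1); with the replicate number as a block, 0 genes passed. The median log2 fold change of variable genes was 1.78 in limma with a pseudocount of 1, and -1.41 over the 3 genes with a mean of at least 10, where fewer genes were tested. Without 1 library it was 2.53 to 4.15, and that of constant genes 1.38 to 2.29. The KO over WT ratio of summed heavy variable genes was 0.900 to 5.00 without 1 library, 5.12 without both replicates 4 and 0.545 without Ighv7-3. For kappa variable genes it was 0.561 to 1.22, and 1.25 without both; leaving out Igkv8-30 gives no ratio, as no WT read remains. The variable to constant ratio of KO was 0.330 without Ighg2b. Of 202 fold changes of single genes under an alternative, 1 turned: Ighv10-3 went to 0.35 in limma with a pseudocount of 0.1. Genes without a read in any WT library could not turn in any setting. The other genes were listed on the same contrast, and every setting used the same libraries or a part of them. The number that turned therefore cannot show how stable the directions are, and nothing is read from it. The cause of the shifts given above was not tested. TMM on the listed genes lowered the median of all listed genes by 0.16 (log2). No pseudogene was listed, so none could be added. Depth limits the variable genes, with 16 to 237 reads each over all libraries, and Ighj4, with 75.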
